A study of Danio rerio with 24 samples.

Results

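The enzymes that build cholesterol from acetyl-CoA were followed through zebrafish larvae that lack a working klf9 gene, which encodes the transcription factor Krüppel-like factor 9. The set was defined by name and holds 10 of the 31242 genes in the count table: hmgcs1, hmgcra, idi1, fdps, fdft1, sqlea, lss, cyp51, msmo1 and insig1. All 10 were found and all 10 passed the filter on low counts at each of the 3 time points. RNA was sequenced from whole larvae at 5 days post-fertilization, 24 samples in all, each a pool of 6 larvae from its own dish. The mutants (klf9-/-) descend from the AB strain and carry a small deletion made by CRISPR in the first exon of klf9, which shifts the reading frame to an early stop. The wildtype controls descend from the same grandparents. Both were raised under the same light and dark cycle and received no agent. Larvae of each genotype were collected 3 hours before the onset of light in the incubator (ZT-3), at the onset (ZT0) and 2.5 hours after it (ZT+2.5), with 4 pools per genotype and time point. The mutants carry 1 allele, so any other difference fixed in it cannot be told apart from the loss of klf9. The study describes RNA extraction in sets of 4 replicate pools, each set passed through the columns together. A difference between these sets cannot be told apart from genotype or time, and p-values measure the spread between pools of larvae.

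Cholesterol is assembled by a linear pathway in the cytosol and the endoplasmic reticulum. Acetyl-CoA is first turned into mevalonate, mevalonate into isoprene units, the units are joined into squalene, and squalene is folded into lanosterol, which is trimmed to cholesterol. Animal cells read their own sterol level through SREBP-2, a transcription factor held in the endoplasmic reticulum that is released when sterol is scarce and then switches on the genes of nearly every step. INSIG proteins hold it back when sterol is plentiful. The liver is a major site of this synthesis, and fish larvae also carry cholesterol from the yolk.

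Each library held 41444609 to 64452247 expected counts, with a median of 53578316, and group medians were lower in klf9-/- (43693188 to 47721919) than in wildtype (53615431 to 60191916). Levels are given as CPM, a gene's count relative to the scaled total of its library, and levels of different genes are not compared because CPM is not corrected for length. The targeted gene, klf9, was lower in the klf9-/- pools, at 10.6 to 19.8 CPM against 35.7 to 65.6 CPM in wildtype before the light phase. The klf9 ranges were 18.5 to 23.2 and 54.4 to 74.2 CPM at its onset, and 4.72 to 18.7 and 15.3 to 38.3 CPM after it. The groups overlapped only at ZT+2.5, through wildtype replicate 2. With edgeR's quasi-likelihood test the klf9 difference over all time points was -1.51 on the log2 scale (SE 0.16, adjusted p = 4.79e-07).

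The summed level of the set was lower in klf9-/- than in wildtype larvae at each of the 3 sampled times, although not every gene of it was called. The summed level of the 10 genes was 218 ± 5.91 CPM (SD, n = 4) in klf9-/- and 361.5 ± 82.2 CPM in wildtype at ZT-3. It was 247.3 ± 22.9 CPM and 390.3 ± 75.9 CPM at ZT0, and 267.3 ± 13.3 CPM and 470 ± 138 CPM at ZT+2.5. The ranges of the sum did not overlap at any time point: the highest klf9-/- pool held 223.8, 274.6 and 285.9 CPM at the 3 times, and the lowest wildtype pool 289.3, 279.3 and 318.7 CPM. In whole larvae, fewer cells that express a gene and less RNA per cell cannot be told apart.

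A gene was called when its adjusted p (edgeR's quasi-likelihood test, Benjamini-Hochberg over all genes tested) was at most 0.1 and its log2 fold change was at least 0.5 in size. Over all time points, 6 of the 10 genes were called lower and none higher: hmgcs1, hmgcra, sqlea, lss, cyp51 and msmo1. Of all 23158 genes tested, 1.48% were called lower in that comparison. Of the other 4, idi1, fdps and fdft1 passed the adjusted p with smaller differences, as 15% of all genes did in the lower direction. The remaining gene, insig1, did not pass (adjusted p = 0.115). The median log2 fold change of the 10 genes was -0.83, and that of all genes tested 0.01. Leaving out any 1 of the 24 samples gave 6 called genes each time.

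At the single time points fewer samples entered each fit. At ZT-3, 6 of the 10 genes were called lower, against 0.947% of all genes. At ZT0 there were 4 (hmgcs1, sqlea, cyp51 and msmo1), against 1.01%, and at ZT+2.5 there were 3 (hmgcs1, cyp51 and msmo1), against 0.609%. By the adjusted p alone the counts were 7 (with idi1), 6 (with idi1 and fdft1) and 5 (with idi1 and fdps), where 3.59%, 5.95% and 2.87% of all genes were lower by that rule. No gene was called higher, and every one of the 10 had a fold change below 0 at each time point, with medians of -0.81, -0.83 and -0.85. The values of the genotypes did not overlap for 7, 5 and 5 genes, in each case because klf9-/- was lower, and 4.22%, 4.69% and 4.22% of all genes tested had every klf9-/- pool below every wildtype pool. The call at a single time point depended on few pools. At ZT-3 the count was 3 (hmgcra, lss and cyp51) without any 1 of the 4 klf9-/- pools or without wildtype replicate 1. At ZT0 it was 0 without klf9-/- replicate 3 or 4 or wildtype replicate 4, 2 without wildtype replicate 1 and 6 without wildtype replicate 3. For ZT+2.5 the fit called 0 genes without klf9-/- replicate 2, 3 or 4 or wildtype replicate 2, and 6 without wildtype replicate 1. Where edgeR called 0, 4 to 7 of the 10 genes at ZT0 and 8 or 9 at ZT+2.5 still had an unadjusted p under 0.05. Samples of the same number deviated together at ZT+2.5, and with the replicate number as a block 0 of the 10 genes were called there by edgeR, although 4 had an unadjusted p under 0.05. DESeq2, without the block, called 6 there.

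**Figure D1:**
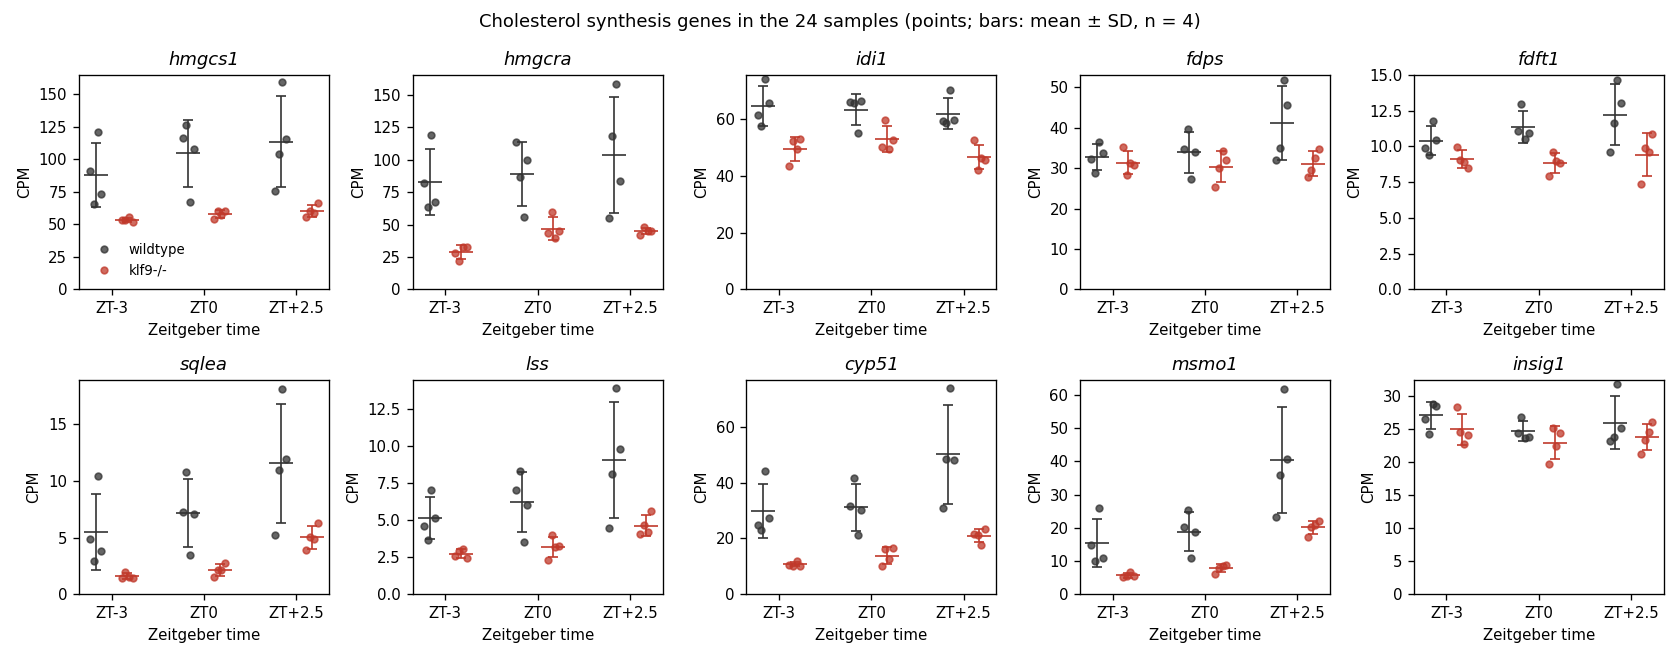
Level of each of the 10 genes (y axis, CPM) in the 24 samples by Zeitgeber time (x axis), wildtype in grey and klf9-/- in red. Points are pools and bars give the mean ± SD of 4 pools. All klf9-/- points lie below all wildtype points of the same time for hmgcs1, cyp51 and msmo1, those of hmgcra, sqlea and lss do so except at ZT0 for hmgcra, ZT+2.5 for sqlea and both of these times for lss, and those of fdps and insig1 overlap the wildtype points at each time.

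The pathway opens with hmgcs1 (ENSDARG00000103025), the cytosolic synthase that joins acetyl-CoA and acetoacetyl-CoA into HMG-CoA. At ZT-3 it stood at 90.7, 65.8, 121 and 73.2 CPM in wildtype replicates 1 to 4, and at 53.1, 53.0, 55.4 and 52.0 CPM in klf9-/-. At ZT0 the values were 116, 126, 67.3 and 108 CPM in wildtype and 54.2, 59.9, 57.4 and 60.1 CPM in klf9-/-. At ZT+2.5 they were 75.4, 104, 159 and 115 CPM against 55.8, 60.6, 58.4 and 66.0 CPM. At each time point every klf9-/- pool was below every wildtype pool, and the mutant pools had a coefficient of variation of 2.71% to 7.22%. The log2 fold changes for hmgcs1 were -0.72 ± 0.19 (SE, adjusted p = 0.0817), -0.80 ± 0.20 (adjusted p = 0.0635) and -0.85 ± 0.18 (adjusted p = 0.0515) in order of time, by edgeR's quasi-likelihood test. Over all time points hmgcs1 was at 57.7% of wildtype (-0.79 ± 0.11, adjusted p = 1.7e-05). With the replicate block, the ZT+2.5 difference was -0.97 ± 0.31 with an adjusted p of 0.364.

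The next step belongs to hmgcra (ENSDARG00000052734), the reductase that makes mevalonate and the main point of control of the whole pathway. Its wildtype pools held 82.2, 63.2, 119 and 67.1 CPM at ZT-3, and its klf9-/- pools 27.9, 21.7, 32.9 and 32.5 CPM. At ZT0 they held 114, 86.8, 56.0 and 99.4 CPM against 43.3, 59.7, 39.8 and 44.9 CPM. At ZT+2.5 they held 55.3, 118, 158 and 83.6 CPM against 42.3, 48.1, 45.2 and 44.7 CPM. The groups were apart at ZT-3 and ZT+2.5, and at ZT0 klf9-/- replicate 2 exceeded wildtype replicate 3. The hmgcra difference was -1.53 ± 0.23 at ZT-3 (edgeR, adjusted p = 0.0171), which leaves 34.7% of the wildtype level. It was -0.94 ± 0.28 (adjusted p = 0.107) at ZT0 and -1.16 ± 0.33 (adjusted p = 0.125) at ZT+2.5, neither of which passed, and -1.22 ± 0.17 over all time points (adjusted p = 1.66e-05). The paralog hmgcrb, annotated as another reductase, was not called: its differences were 0.00, -0.09 and 0.01, with adjusted p values of 0.332 to 0.997. In the RefSeq annotation of the GRCz12tu assembly, used only for the neighbourhood of genes, hmgcra was the 1 member on the chromosome of klf9, with 384 tested protein-coding genes between them.

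The study also used a 100-base probe against hmgcra, designed by Nanostring, for a separate assay whose data were not analysed here. It is shown because hmgcra had the largest difference of the 10 genes in the first steps of the pathway, and it marks a stretch of the transcript that was chosen for detection. It covers transcript positions 1775 to 1874, has a GC content of 53%, and is written 5′ to 3′ in lower case with no base marked:
hmgcra probe target: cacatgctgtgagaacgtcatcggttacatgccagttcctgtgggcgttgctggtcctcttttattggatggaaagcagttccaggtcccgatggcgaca

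The differences were smaller in the middle of the pathway. idi1 (ENSDARG00000019976) interconverts the isoprene units, and fdps (ENSDARG00000040890) joins them into farnesyl diphosphate, which also feeds protein prenylation. The idi1 level ranged from 57.8 to 74.2 CPM in wildtype and 43.6 to 52.9 CPM in klf9-/- at ZT-3, 55.2 to 66.6 against 49.7 to 59.8 CPM at ZT0, and 58.6 to 70.2 against 42.3 to 52.6 CPM at ZT+2.5. The idi1 groups overlapped only at ZT0, through wildtype replicate 3. Its differences were -0.39 ± 0.09 (edgeR, adjusted p = 0.0395), -0.28 ± 0.08 (adjusted p = 0.0813) and -0.41 ± 0.08 (adjusted p = 0.0325), each past the adjusted p but under the fold threshold. With the replicate block the idi1 value at ZT+2.5 was -0.49 (adjusted p = 0.0288), the 1 member below the adjusted p of 0.1 in that fit.

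The fdps level was 32.8 ± 3.15 CPM in wildtype and 31.4 ± 2.92 CPM in klf9-/- at ZT-3, 33.9 ± 5.13 against 30.4 ± 3.84 CPM at ZT0, and 41.1 ± 9.21 against 31.2 ± 3.18 CPM at ZT+2.5 (SD, n = 4). The groups overlapped at each time point. With edgeR the fdps difference was -0.07 ± 0.08 (adjusted p = 0.686), -0.09 ± 0.11 (adjusted p = 0.67) and -0.34 ± 0.08 (adjusted p = 0.0618, and 0.2 with the replicate block).

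Squalene synthase, fdft1 (ENSDARG00000101062), takes the first step that leads only to sterols, and sqlea (ENSDARG00000079946), a squalene epoxidase, takes the next one, which needs oxygen. The fdft1 level was 9.44 to 11.8 CPM in wildtype and 8.46 to 9.95 CPM in klf9-/- at ZT-3, 10.5 to 13.0 against 7.94 to 9.59 CPM at ZT0, and 9.61 to 14.6 against 7.36 to 10.9 CPM at ZT+2.5, so that only the ZT0 groups were apart. Its differences were -0.20 ± 0.08 (edgeR, adjusted p = 0.172), -0.34 ± 0.09 (adjusted p = 0.0436) and -0.33 ± 0.10 (adjusted p = 0.103), and -0.28 ± 0.05 over all time points (adjusted p = 0.000276).

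At ZT-3, sqlea held 4.84, 2.98, 10.4 and 3.83 CPM in wildtype replicates 1 to 4, and 1.48, 2.00, 1.54 and 1.45 CPM in klf9-/-. At ZT0 it held 7.25, 10.8, 3.44 and 7.08 CPM against 1.53, 2.13, 2.14 and 2.79 CPM. At ZT+2.5 it held 5.24, 11.0, 18.1 and 11.9 CPM against 3.87, 5.07, 4.90 and 6.34 CPM. The genotypes were apart at ZT-3 and ZT0, and at ZT+2.5 klf9-/- replicate 4 was above wildtype replicate 1. The sqlea differences were the largest of the 10 genes at ZT-3 and ZT0, at -1.77 ± 0.44 (edgeR, adjusted p = 0.0737) and -1.58 ± 0.37 (adjusted p = 0.0498), and -1.08 ± 0.29 at ZT+2.5 (adjusted p = 0.106). Over all time points sqlea was at 36.4% of wildtype (-1.46 ± 0.22, adjusted p = 4.37e-05). The second epoxidase, sqleb, differed by -0.50 ± 0.26, -0.09 ± 0.23 and 0.20 ± 0.23, with adjusted p values of 0.321 to 0.865.

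Squalene epoxide is closed to lanosterol, the first sterol, by lss (ENSDARG00000061274), and cyp51 (ENSDARG00000042641), a cytochrome P450, removes a methyl group from it. At ZT-3, lss held 4.60, 3.69, 7.04 and 5.14 CPM in wildtype and 2.58, 2.89, 3.06 and 2.47 CPM in klf9-/-. At ZT0 it held 7.02, 8.33, 3.51 and 6.01 CPM against 2.29, 4.02, 3.17 and 3.27 CPM, and at ZT+2.5 4.45, 8.10, 13.9 and 9.79 CPM against 4.07, 4.65, 4.21 and 5.60 CPM. The lss groups were apart at ZT-3, while wildtype replicate 3 at ZT0 and wildtype replicate 1 at ZT+2.5 fell among the mutant pools. The differences were alike in size, -0.90 ± 0.18 (edgeR, adjusted p = 0.0246), -0.86 ± 0.29 (adjusted p = 0.124) and -0.85 ± 0.26 (adjusted p = 0.136), and only the first passed.

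For cyp51 the 4 wildtype pools held 24.7, 23.2, 44.1 and 27.2 CPM at ZT-3, and the klf9-/- pools 10.5, 10.3, 11.8 and 10.2 CPM. At ZT0 they held 31.5, 41.8, 21.3 and 30.3 CPM against 9.95, 16.3, 12.7 and 16.5 CPM. At ZT+2.5 they held 30.7, 48.4, 73.7 and 47.9 CPM against 21.7, 21.1, 17.8 and 23.5 CPM. No mutant pool reached a wildtype pool at any time point. The cyp51 differences were -1.48 ± 0.22 (edgeR, adjusted p = 0.014), -1.08 ± 0.25 (adjusted p = 0.0534) and -1.20 ± 0.26 (adjusted p = 0.0653), and cyp51 had the smallest p of the 10 genes over all time points (-1.26 ± 0.14, adjusted p = 1.27e-06). With the replicate block the ZT+2.5 value was -1.41 ± 0.46 with an adjusted p of 0.386.

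The last enzyme of the set, msmo1 (ENSDARG00000055876), begins the removal of further methyl groups from the sterol ring. At ZT-3 it held 14.8, 10.0, 25.9 and 10.9 CPM in wildtype and 5.29, 5.49, 6.82 and 5.38 CPM in klf9-/-. At ZT0 it held 20.3, 25.5, 11.0 and 18.8 CPM against 6.23, 7.89, 8.46 and 8.88 CPM, and at ZT+2.5 23.2, 35.9, 61.8 and 40.7 CPM against 17.4, 20.3, 20.8 and 22.2 CPM. The genotypes did not overlap at any time point, although the klf9-/- pools of ZT+2.5 lay within the wildtype range of ZT0. The msmo1 differences were -1.43 ± 0.33 (edgeR, adjusted p = 0.0632), -1.15 ± 0.26 (adjusted p = 0.047) and -0.91 ± 0.23 (adjusted p = 0.0924). With the replicate block the last was -1.04 ± 0.35 with an adjusted p of 0.384.

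The 1 member that is no enzyme, insig1 (ENSDARG00000010658), encodes the membrane protein that retains SREBP in the endoplasmic reticulum and is itself a known target of SREBP in mammals. Its level was 24.3 to 28.9 CPM in wildtype and 22.8 to 28.3 CPM in klf9-/- at ZT-3, 23.7 to 26.9 against 19.7 to 25.2 CPM at ZT0, and 23.2 to 31.9 against 21.3 to 26.1 CPM at ZT+2.5. The ranges overlapped at each time. The insig1 differences of -0.12 ± 0.07, -0.08 ± 0.08 and -0.10 ± 0.08 had adjusted p values of 0.338 to 0.591 with edgeR. Its paralog insig2 is described with the sterol-sensing genes.

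**Figure D2:**
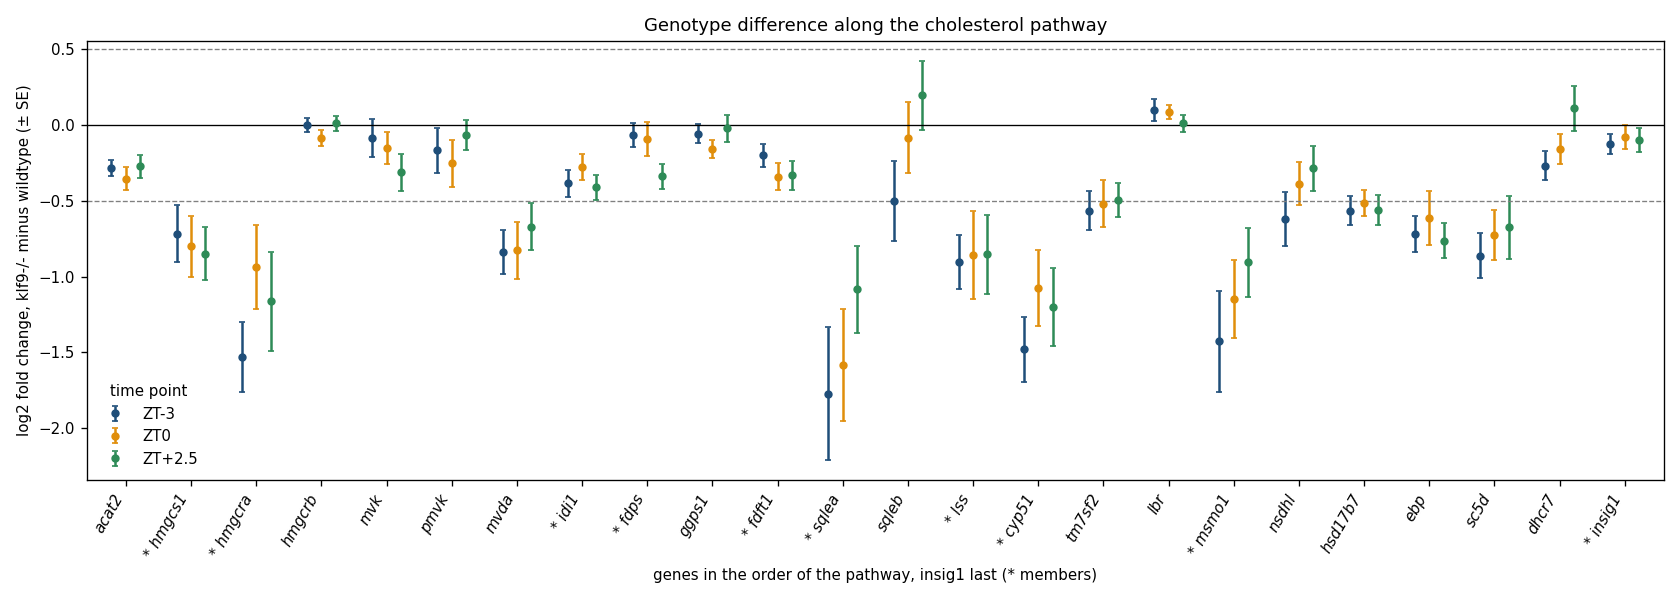
Log2 fold change of klf9-/- against wildtype (y axis, ± SE of the fit) for the enzymes in the order in which they act, with insig1 last (x axis), at ZT-3 (blue), ZT0 (orange) and ZT+2.5 (green). Stars mark the 10 genes of the set and dashed lines the fold threshold of 0.5. The values dip at hmgcs1 and hmgcra, dip at mvda, return towards 0 between idi1 and fdft1, and dip again from sqlea to sc5d, with hmgcrb, sqleb and lbr nearer 0 than their neighbours.

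The other enzymes of the pathway, 15 of 17 listed and found in the table, were lower at some steps and not at others. Of the 15, 5 were called lower over all time points, against 1.48% of all genes, and none higher: mvda, tm7sf2, hsd17b7, ebp and sc5d. At ZT-3 there were 6, these and nsdhl (0.947% of all genes), at ZT0 the same 5 as over all time points (1.01%), and at ZT+2.5 there were 3, mvda, hsd17b7 and ebp (0.609%). mvda, a decarboxylase that makes the first isoprene unit, differed by -0.78 ± 0.10 over all time points (edgeR, adjusted p = 3.55e-06) and lies between hmgcra and idi1. The other 4 act after cyp51: tm7sf2, a sterol reductase, differed by -0.52, hsd17b7, which acts beside msmo1, by -0.55, ebp, a sterol isomerase, by -0.70, and sc5d, a desaturase, by -0.76. nsdhl, the dehydrogenase that follows msmo1, differed by -0.62 at ZT-3 (adjusted p = 0.0894). The rest of the list was not called in any of these comparisons, although 14 of the 15 differences over all time points were below 0. By the adjusted p alone, 9 of the 15 were lower over all time points and none higher, where 16.5% of all genes were lower. The counts by that rule were 8 at ZT-3 (3.59% of all genes), 6 at ZT0 (5.95%) and 5 at ZT+2.5 (2.87%). dhcr7, one of the last reductases, differed by -0.09 over all time points (adjusted p = 0.4), ggps1, which diverts isoprenoids to longer chains, by -0.07 (adjusted p = 0.188), and lbr, a receptor of the nuclear lamina with sterol reductase activity, by 0.07 (adjusted p = 0.151). With the replicate block at ZT+2.5, mvk, hsd17b7 and ebp were among those called lower, and mvda had an adjusted p of 0.147.

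Steps in time were called only among the later enzymes of the set. From ZT0 to ZT+2.5 in wildtype, 2 of the 10 genes were called higher and none lower, against 1.97% and 1.46% of all genes: msmo1 rose by 1.10 ± 0.28 on the log2 scale (edgeR, adjusted p = 0.0117), from 18.9 to 40.4 CPM in the mean, and cyp51 by 0.69 ± 0.23 (adjusted p = 0.0626). In klf9-/- the same step called 2 genes higher and none lower, against 2.04% and 1.51% of all genes: msmo1 rose by 1.31 ± 0.30 (adjusted p = 0.00559), from 7.87 to 20.2 CPM, and sqlea by 1.15 ± 0.40 (adjusted p = 0.0707), from 2.15 to 5.04 CPM. In klf9-/-, 4 genes (sqlea, lss, cyp51 and msmo1) did not overlap between ZT0 and ZT+2.5 and were higher at the later time, as were 5.92% of all genes. In wildtype 0 of the 10 did so, against 6.33% of all genes. The genotypes are not shown to differ in this, since edgeR and DESeq2 called 0 of the 10 genes for the interaction of genotype and time, with no unadjusted edgeR p under 0.05. The steps not called were 0.69 ± 0.34 for sqlea in wildtype (adjusted p = 0.219), and 0.48 and 0.54 for lss and 0.57 for cyp51, the first and last in klf9-/- and the other in wildtype. The call of cyp51 was lost, leaving msmo1 alone, without wildtype ZT0 replicate 1 or 3 or wildtype ZT+2.5 replicate 2 or 3. That of sqlea was lost without any 1 of the klf9-/- pools of either time except ZT+2.5 replicate 3.

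From ZT-3 to ZT0, edgeR called 0 of the 10 genes in either genotype, with 1.38% of all genes called higher and 0.764% lower in wildtype, and 2.53% higher and 1.08% lower in klf9-/-. A single gene had an unadjusted p under 0.05 in each, insig1 in wildtype and hmgcra in klf9-/-, and DESeq2 called 0 and 1 of the 10. The 1 was hmgcra, which went from 28.7 ± 5.19 to 46.9 ± 8.78 CPM in klf9-/- (SD, n = 4), with no overlap between the time points (6.8% of all genes were higher at ZT0 without overlap), a log2 difference of 0.71 ± 0.28 and an edgeR adjusted p of 0.121. In wildtype hmgcra went from 82.8 ± 25.3 to 88.9 ± 24.5 CPM, a difference of 0.09 ± 0.28. With edgeR the klf9-/- step of hmgcra was called without wildtype ZT-3 replicate 3, ZT0 replicate 3, ZT+2.5 replicate 1 or ZT+2.5 replicate 3, which entered the fit through the shared spread. Whether the genotype difference itself varied with time was tested by the interaction of genotype and time. edgeR called 0 of the 10 genes and DESeq2 called 0, no member had an unadjusted p under 0.05, the smallest was 0.1 (fdps), and 4 of all genes were called (0.0173%). The times at which a gene was called in one comparison and not in another are therefore not shown to differ.

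The wildtype pools of a group differed more from each other than the klf9-/- pools did. The coefficient of variation was larger in wildtype for 9, 8 and 9 of the 10 genes in order of time, with medians of 27.9%, 25.8% and 33.0% in wildtype and 9.37%, 13.7% and 10.1% in klf9-/-. Of all genes past the filter, 44.7%, 50.5% and 47.1% had the larger coefficient in wildtype, and the medians over all genes were 10.9%, 10.0% and 11.4% in wildtype and 11.2%, 9.82% and 12.0% in klf9-/-. In wildtype the 10 genes moved together from pool to pool, and in klf9-/- they did so in part and over a smaller range. Replicate 3 was the highest pool for all 10 genes at ZT-3, with a median of 138% of the group mean, and replicate 2 the lowest for all 10, with a median of 77.0%. At ZT0, replicate 3 was the lowest for all 10 (66.3%) and replicate 2 the highest for 8. At ZT+2.5, replicate 3 was again the highest for all 10 (144%) and replicate 1 the lowest for 9 (63.8%). Among the klf9-/- pools, replicate 1 was the lowest for 8 of the 10 genes at ZT0 and again at ZT+2.5. Replicate 4 of klf9-/- was the highest for 8 at ZT+2.5. At ZT-3 no klf9-/- pool was the highest or the lowest for more than 5. The medians of the klf9-/- pools lay between 84.4% and 111% of the group mean. The genes with the smallest genotype difference, idi1, fdps, fdft1 and insig1, had the smallest coefficients of variation in wildtype at each time point. The sum of the 10 genes was nevertheless lower in the highest mutant pool than in the lowest wildtype pool at each time.

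**Figure D3:**
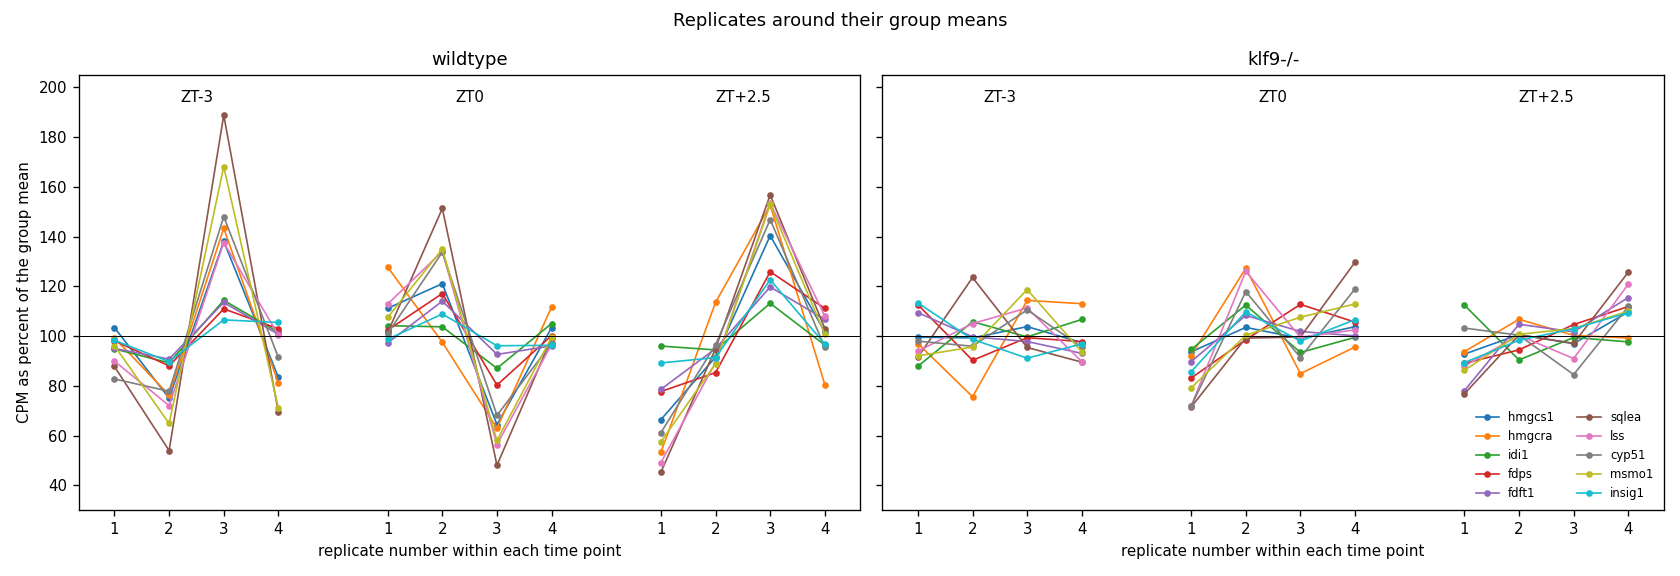
CPM of each of the 10 genes as a percent of its group mean (y axis) in replicates 1 to 4 of each time point (x axis). Wildtype is on the left and klf9-/- on the right. No label says what a replicate number marks, but the first principal component rose or fell steadily with it in each of the 6 groups. Each line is a gene and the horizontal line marks the group mean. The wildtype lines rise and fall together, from 45.3% to 189%. The klf9-/- lines stay between 71.5% and 130%, and most of them are lowest in replicate 1 at ZT0 and ZT+2.5.

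Other measures moved with these pools. The first principal component, recomputed from the deposited log values, entered every fit as a covariate, and the study attributes its own first component to RNA extraction. The recomputed component correlated with the 10 genes at -0.06 (idi1) to -0.61 (fdps) over the 24 samples. The 12 hepatocyte markers fixed as a list (fabp10a, tfa, fga and others) were detected in all groups. Within groups, deviations of the 12 from the group mean correlated with those of the mean of the 10 genes at 0.43 to 0.74 (Pearson, 24 samples, which share library and first component). The 9 exocrine pancreas markers correlated at 0.50 to 0.61 and the 6 fast muscle markers at -0.43 to -0.52. Between genotypes the direction was the opposite. Over all time points 8 of the 12 hepatocyte markers were called higher in klf9-/-, 0 lower, with a median of 0.58, and 3.43% of all genes were called higher. Their summed level was 3512 to 6073 CPM in klf9-/- against 2500 to 4537 CPM in wildtype at ZT-3. It was 4820 to 6509 CPM and 3683 to 4997 CPM at ZT0, and 4570 to 6295 CPM and 1938 to 5679 CPM at ZT+2.5. The 9 exocrine pancreas markers were all called higher over all time points, with a median of 0.77. At the single times 1, 9 and 1 of them were called higher, against 1.98%, 2.41% and 1.67% of all genes. Their summed levels overlapped at each time. They were 1040 to 5347 CPM in klf9-/- against 867 to 1802 CPM in wildtype at ZT-3. At ZT0 they were 890.3 to 4338 against 1062 to 4307 CPM, and at ZT+2.5 958.9 to 6602 against 836.4 to 4609 CPM. Of 7 intestine markers 4 were called higher over all time points, with a median of 0.50. Of 5 yolk syncytial layer and lipoprotein markers 1 was called higher, with a median of 0.20. No neuron, fast muscle or epidermis marker was called, and their medians were 0.05, 0.00 and -0.06. No listed marker was at 0 in every pool of a group. The part of these lists in the results was not tested.

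Of the 6 genes that sense sterol none was called. By the adjusted p alone, 3 passed over all time points, 2 lower and 1 higher, each below the fold threshold. By that rule 16.5% of all genes were lower, and the share of all genes that were higher was not counted. The 3 were srebf2, which encodes SREBP-2 (-0.34, edgeR, adjusted p = 5.08e-07), and 2 that encode proteases which cut SREBP free. Of the proteases, mbtps1 was lower (-0.10, adjusted p = 0.00221) and mbtps2 higher (0.08, adjusted p = 0.0629). srebf2 held 63.2, 58.5, 71.8 and 62.9 CPM in wildtype and 54.9, 49.3, 54.7 and 50.2 CPM in klf9-/- at ZT-3. At ZT0 it held 64.7, 69.5, 58.8 and 71.8 CPM against 49.0, 51.2, 49.2 and 54.0 CPM, and at ZT+2.5 69.7, 68.0, 74.4 and 71.8 CPM against 50.2, 59.3, 51.0 and 58.7 CPM. The genotypes did not overlap at any time point. The srebf2 differences of -0.30 ± 0.07, -0.40 ± 0.07 and -0.36 ± 0.07 passed the adjusted p (edgeR, 0.0361, 0.00835 and 0.0227, and 0.0717 for the last with the replicate block) but not the fold threshold. Over all time points srebf1, the relative of srebf2 linked to fatty acid synthesis, differed by 0.12 (adjusted p = 0.103), scap, which escorts SREBP, by -0.08 (adjusted p = 0.103) and insig2 by -0.08 (adjusted p = 0.354).

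**Figure D4:**
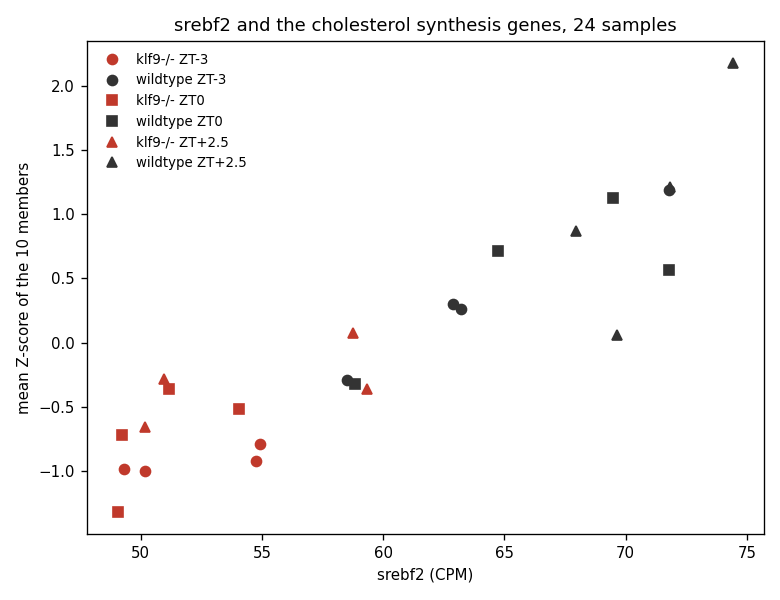
Mean Z-score of the 10 genes (y axis, SD units over the 24 samples) against the level of srebf2 (x axis, CPM) in each sample, klf9-/- in red and wildtype in black, with circles for ZT-3, squares for ZT0 and triangles for ZT+2.5. Most klf9-/- samples lie to the lower left of the wildtype samples, with the klf9-/- ZT+2.5 replicates 2 and 4 beside wildtype ZT-3 replicate 2 and ZT0 replicate 3, and within wildtype the samples with more srebf2 tend to have the higher Z-score.

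Among genes outside the pathway, srebf2 had the highest correlation with the set over the 24 samples, a measure that includes the genotype difference. Each sample was given the mean Z-score of the 10 genes, and every other gene was ranked by its Pearson correlation with that score over the 24 samples. The correlation was 0.90 for srebf2 (Spearman 0.897, and 0.892 without the 2 wildtype ZT+2.5 pools, replicates 3 and 4, farthest from the median). The score differs between the genotypes, so the correlation of deviations within groups is given beside it, and it was 0.674 for srebf2. By that within-group measure the 12 hepatocyte markers, which differed between genotypes in the opposite direction, ranged from 0.433 to 0.738. In the ranking over the 24 samples aacs, which makes acetoacetyl-CoA in the cytosol, followed srebf2 with 0.874 (0.872 within groups). Other genes of high likeness were arcn1a, tmed10, ssr2, derl2, nansa and rida, at 0.856 to 0.84, of which arcn1a encodes a coatomer subunit, tmed10 a cargo receptor and ssr2 part of the translocon. ERG28 followed at 0.839 (0.721 within groups), whose yeast counterpart tethers sterol enzymes. Of the genes named here rida had the largest difference between genotypes, at -0.90 over all time points (edgeR, adjusted p = 5.55e-07). These are descriptions over samples that share library depth and the first component.

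Of the 21 genes of uptake, transport and storage in the table, 4 were called higher over all time points and none lower, where 3.43% of all genes were called higher. They were abca1b, an exporter of cholesterol (0.81 ± 0.10, edgeR, adjusted p = 5.83e-06), abcg5 (0.71 ± 0.17, adjusted p = 0.00265) and abcg8 (0.93 ± 0.15, adjusted p = 4.4e-05), whose products pair to export sterol, and soat2, which esterifies cholesterol (0.80 ± 0.13, adjusted p = 4.84e-05). At ZT-3 there were 3, against 1.98% of all genes, at ZT0 4, against 2.41%, and at ZT+2.5 1 (abca1b), against 1.67%. With the replicate block abca1b had an adjusted p of 0.309 at ZT+2.5, and soat1 was called in its place (0.59, adjusted p = 0.0554). In the same samples 8 of 12 hepatocyte markers and 4 of 7 intestine markers were called higher over all time points. Whether the called genes of this list follow those tissues was not tested. A pair of genes of this list that SREBP-2 controls in mammals were lower without reaching the fold threshold. Of these, ldlrb, a receptor of low-density lipoprotein, differed by -0.31 ± 0.04 (edgeR, adjusted p = 4.43e-06), and stard4, a sterol carrier, by -0.42 ± 0.06 (adjusted p = 4.73e-06). By the adjusted p alone, 16.5% of all genes were lower in that comparison over all time points. Of 6 genes of fatty acid synthesis, 1 was called, fads2, a desaturase, which was lower at ZT-3 (-0.67 ± 0.20, adjusted p = 0.0983) against 0.947% of all genes, and differed by -0.08 at ZT0 and -0.23 at ZT+2.5.

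**Figure D5:**
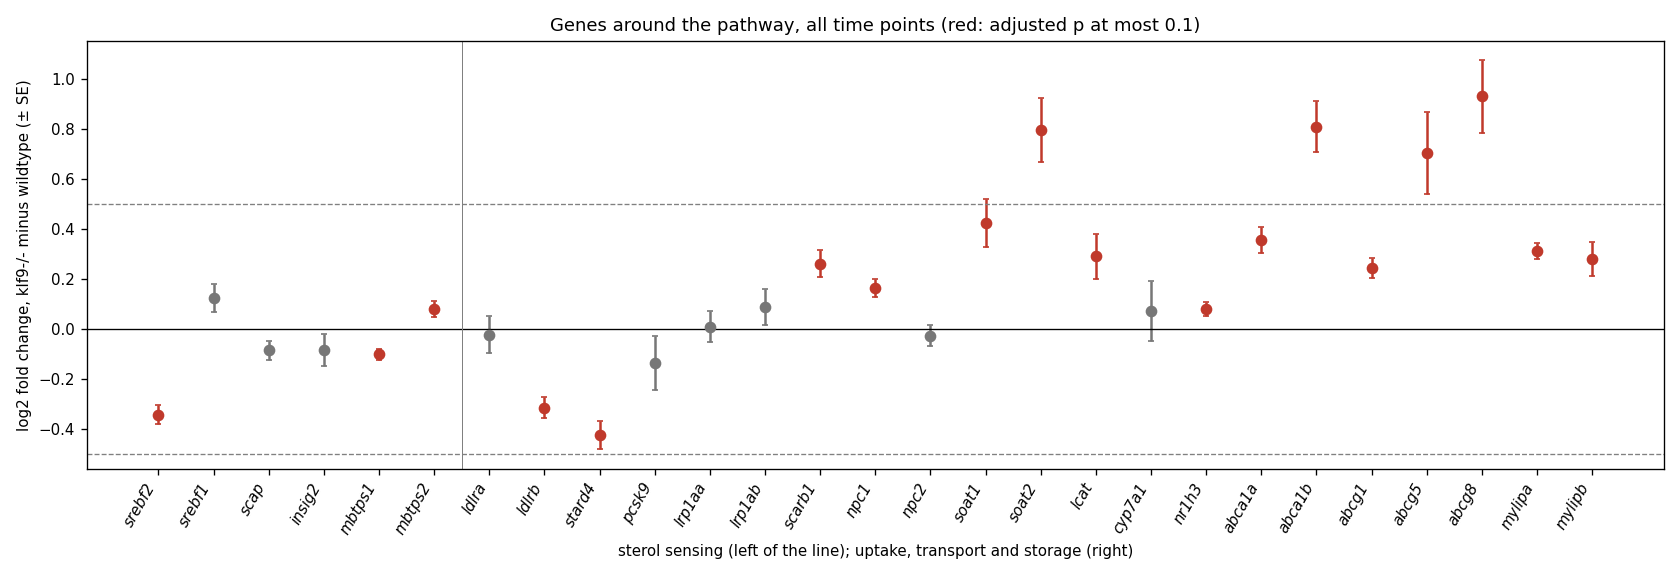
Log2 fold change of klf9-/- against wildtype over all time points (y axis, ± SE of the fit) for the genes of sterol sensing (left of the vertical line) and of sterol uptake, transport and storage (right). Red marks an adjusted p of at most 0.1 and dashed lines the fold threshold. srebf2, mbtps1, ldlrb and stard4 lie below 0, mbtps2 lies above it within the threshold, and abca1b, abcg5, abcg8 and soat2 lie above the threshold.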

How the data were processed

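Single-end reads were aligned and quantified by the authors, and the submitters' processing notes name Trim Galore 0.6.5, STAR 2.7.5c and RSEM 1.3.3. The authors deposited RSEM expected counts per gene, without normalization, in 1 table, and summed the counts of IDs that shared a gene symbol. RSEM can divide reads between near-identical copies, so values of hmgcra and hmgcrb, or sqlea and sqleb, are uncertain to that extent. The authors also deposited log2 values (rlog, DESeq2) and tables of their own fold changes and p-values, which were not used.

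Expected counts were rounded, 18.0% of them not being whole, and genes were filtered with filterByExpr by group in edgeR 4.0.16 (R 4.3.3) and scaled by TMM. The quasi-likelihood test was fitted separately to the 8 pools of a time point, over the 24 pools with a term for time, and over the 6 group means for steps in time and the interaction. The first principal component was a covariate in every fit, as in the study's design, but it was recomputed here from the Z-transformed deposited rlog values (21.7% of the variance), and the study's own scores were not used. A call needed an adjusted p of at most 0.1 and, except for the interaction, a change of 0.5 or more on the log2 scale. The SE is the fold change divided by the square root of F. The step in time and the interaction were added to the study's comparisons. Libraries of 41444609 to 64452247 counts gave each of the 10 genes at least 61 counts in every sample. Replicates differed by 7.14 to 87.6 times counting noise (36 pairs), so no library was counted as a repeat of another. In data simulated with changes of 1 on the log2 scale in 200 genes, the fits recovered 79.5% to 97% of them. Of the calls made there, 0.513% to 7.95% were false. The simulation gave each gene the same spread in both genotypes and no effect of the first component. Most of the 10 genes varied more in wildtype, so their own rate of recovery was not measured.

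Wildtype and klf9-/- pools of the same number deviated together, with a correlation over 0.1 in all pairs, only at ZT+2.5 (0.47, 0.25, 0.29 and 0.27). No label says what a number marks. The first component rose or fell steadily with the number in each of the 6 groups. Its direction was the same in both genotypes at ZT+2.5 and opposite at ZT-3 and ZT0. The deviations were taken without removing the component, so a pairing of pools at ZT+2.5 cannot be told apart from it. The blocked value is given beside a ZT+2.5 result where it changed the call. Alternatives were RLE scaling, no filter, DESeq2 1.42.0, no first component, the first component of the 8 samples alone, no fold threshold, the replicate block and each sample left out. The block without the first component was chosen after seeing the data. The 10 genes and all lists were chosen with earlier results of these data known. Named are the 10 genes, klf9, every called gene of the pathway, sensing, uptake and fatty acid lists, hmgcrb, sqleb, insig2, srebf1, srebf2 and scap, and those of the 10 genes most like the set that are reported here; ggps1, lbr, dhcr7, mvk, mbtps1, mbtps2, ldlrb, stard4 and soat1 were named after their values were seen.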

Additional observations from a re-analysis of the deposited data

Results flagged for a closer look

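In 4 of the 60 groups of 4 pools (10 genes in 6 groups), 1 pool stood apart from the other 3 by Dixon's ratio, the gap to the nearest pool divided by the range. Chance flags about 1 group in 20. idi1 was lowest in wildtype ZT0 replicate 3 (55.2 CPM, ratio 0.927) and highest in wildtype ZT+2.5 replicate 3 (70.2 CPM, ratio 0.895). In klf9-/- at ZT-3, replicate 3 was the highest pool for cyp51 (11.8 CPM, ratio 0.842) and for msmo1 (6.82 CPM, ratio 0.867).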

How the results depend on the processing

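Over all time points 6 of the 10 genes were called lower under each alternative run except the adjusted p alone, which called 9, and without any 1 sample. Single time points were less stable, and where no cause is given it was not tested. At ZT+2.5, where 3 were called, DESeq2 called 6, the fit without the first component 1, the adjusted p alone 5, and the replicate block 0, also without the first component. With each replicate left out in turn the counts ran from 3 to 6 at ZT-3, 0 to 6 at ZT0 and 0 to 6 at ZT+2.5. For the step from ZT0 to ZT+2.5 they ran from 1 to 3 in wildtype and 1 to 3 in klf9-/-, where 2 were called with all samples, and wildtype gave 1 without the first component. For the step from ZT-3 to ZT0 in klf9-/- they ran from 0 to 1, and DESeq2 gave 1. Among the differences given gene by gene, left-out samples turned 2 small ones: fdps at ZT0 ran from -0.185 to 0.042, and hmgcra from ZT-3 to ZT0 in wildtype from -0.036 to 0.32. Of the other 30 steps in time of single genes, 15 changed sign under some alternative, to values of at most 0.221 in size.

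With the replicate number as a block, the counts were 5 at ZT-3, 4 at ZT0 and 6 over all time points, and 2, 2, 0 and 0 for the steps in time, as without it except at ZT-3, where 6 were called, and ZT+2.5. At ZT+2.5 a pairing cannot be told apart from the first component, which followed the number in the same direction in both genotypes. At the other times the same-numbered pools did not deviate together. Over all genes the block called 444 at ZT+2.5 against 514, the fit without the first component 144 and the adjusted p alone 1506. At ZT-3 these were 661, with 347 without the component and 1995 by adjusted p alone, and at ZT0 772, 473 and 3064. The 10 genes had 61 to 8358 counts per sample. Averaged over genes, the spread between the 4 pools of a group was larger than counting error. For members with few counts, such as sqlea with 61 to 121 counts in klf9-/- at ZT-3, the share of counting error in that spread was not measured.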
